A study of Sus scrofa with 6 samples.

Results

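RAB GTPases were examined in porcine blood monocytes sorted into a CD163-rich and a CD163-poor population. The members were all genes whose symbol in the array's annotation is RAB followed by a number and at most 1 letter, which gave 44 genes with 83 probe sets, of 13755 named genes and 47722 probe sets on the array. Proteins that bind or regulate RABs carry other symbols and were described separately. All 44 symbols are in the current RefSeq annotation of the pig (Sscrofa11.1), where 15 further RAB genes of the same naming pattern, among them RAB1A, RAB5A, RAB8A and RAB11B, are not analysed here.

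The cells came from the blood of 3 piglets aged 8 weeks, F1 crosses of Large White and Landrace. Peripheral blood mononuclear cells were frozen, thawed, stained and sorted by flow cytometry on 2 surface proteins, CD163, which takes up haemoglobin bound to haptoglobin, and CD14, which helps to sense bacterial lipopolysaccharide. The CD163high population had low CD14 and high CD163, and the CD163low population had high CD14 and low CD163. RNA of every sorted sample went onto an Affymetrix array of its own for pig transcripts, with 3 arrays for CD163high, 3 for CD163low and 2 for each animal. The comparison asks which transcripts differ between the populations.

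RAB proteins are small GTPases that mark the membranes of the cell. In the GTP-bound form, set by exchange factors, a RAB sits on its own compartment and recruits effectors that tether, move or fuse vesicles, and GTPase-activating proteins switch it off. Monocytes and macrophages use them to carry ingested particles and scavenged receptors through early endosomes to lysosomes, to return receptors to the surface and to secrete. The roles given here are those known from human and mouse cells. In bulk RNA, fewer cells with a transcript and less transcript per cell cannot be told apart.

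The array's background controls, 69 probe sets that match no genome and differ in their content of G and C, served as the detection floor. Their mean log2 signal was 2.82, 2.97 and 3.67 in CD163high monocytes of pigs 1, 2 and 3, and 3.29, 2.60 and 3.06 in CD163low monocytes. Their 95th percentile, which is set by the controls richest in G and C, was 5.40, 6.03 and 7.42 on the CD163high arrays, against 6.54, 5.07 and 6.22 on the CD163low arrays. Controls with 3 G or C bases averaged 1.46 and those with 25 averaged 6.53 over the arrays, so the 95th percentile is a strict floor and the mean a lenient one. The CD163high array of pig 3 and the CD163low array of pig 1 had the highest background by either measure.

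Of the 44 RAB genes, 27 were above the mean control on all 6 arrays, 13 on some and 4 on none. The 4 were RAB3C, RAB9B, RAB13 and RAB39B. Above the 95th percentile on every array were RAB7A, RAB8B, RAB10 and RAB12, and 13 more genes were above it on some arrays. The number of members over the 95th percentile was 15, 15 and 4 in CD163high, against 6, 17 and 12 in CD163low monocytes of pigs 1, 2 and 3. It was therefore lowest on the 2 arrays with the highest background. Signals of different probe sets cannot be set against each other as amounts of RNA, and only the place of each relative to this floor is given.

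**Figure D1:**
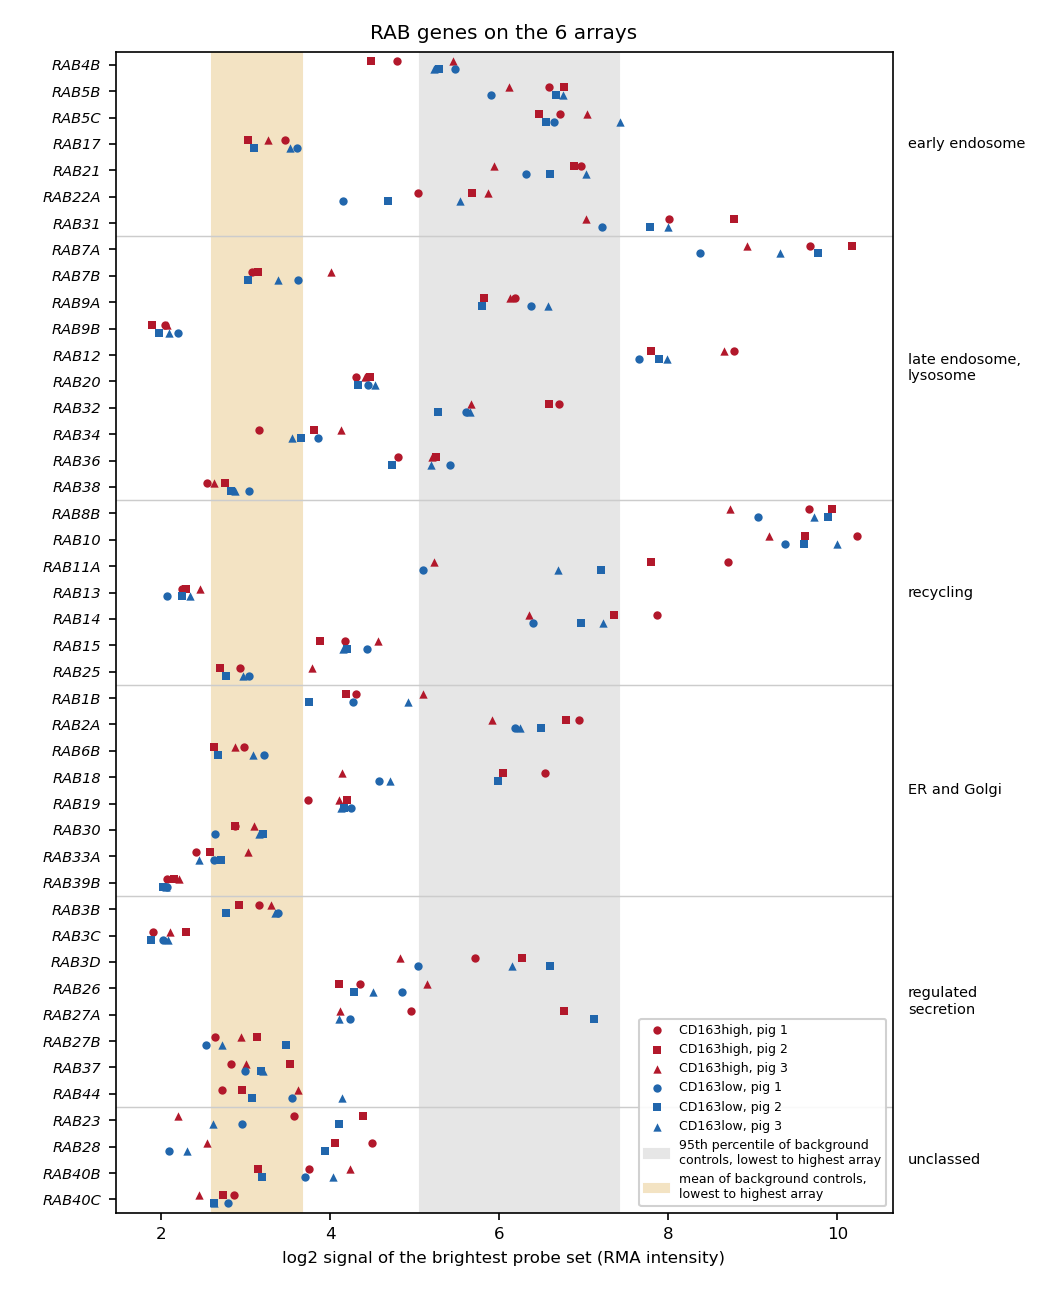
Log2 signal of the brightest probe set of each RAB gene (horizontal axis) on the 6 arrays, with CD163high arrays in red and CD163low arrays in blue and the pigs shown by symbol. The left band spans the mean of the background controls from the lowest to the highest array and the right band their 95th percentile, and RAB7A, RAB8B, RAB10 and RAB12 lie to the right of both bands on all arrays.

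The brightest probe set of CD163, the sorted antigen, had signals of 8.17, 7.98 and 7.61 in CD163high, against 4.97, 6.17 and 6.54 in CD163low monocytes. CD14, the other antigen, had 4.31, 5.53 and 5.82 in CD163high, against 6.24, 5.78 and 6.84 in CD163low monocytes. CD14 was lower in the CD163high array of every pig, but the populations overlapped (log2 difference -1.07 ± 0.47, SE). All 5 measured monocyte markers of 8 listed were above the mean of the controls on every array, and their summed linear signal ran from 930.7 to 2965 in CD163high and from 1498 to 2489 in CD163low monocytes. The summed signal of the 4 measured neutrophil markers (of 8) ran from 327.9 to 886.4 in CD163high and from 752.5 to 1794 in CD163low monocytes. Such sums weigh the brightest gene most, which on every array was LYZ among the monocyte markers and CSF3R among the neutrophil markers. CXCR2 had a log2 signal of 5.35 ± 0.80 in CD163high and 8.01 ± 0.22 in CD163low monocytes (SD, n = 3). CSF3R had a log2 difference of -1.09. MPO and LTF, with log2 differences of -0.097 and 0.10, were above the mean of the controls on 2 and 0 arrays. The 5 platelet markers (of 6) ran from 146.6 to 169.7 in CD163high and from 164.3 to 250.6 in CD163low monocytes, and the 4 dendritic cell markers (of 6) from 195.3 to 327.8 in CD163high and from 170.6 to 234.9 in CD163low monocytes. Of these dendritic cell markers 3 had a lower mean log2 signal in CD163high and 1 a higher one, with a median log2 difference of -0.30. The part of these cell types in the RAB values was not tested.

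No RAB transcript passed the test over the whole array, and 1 gene, RAB32 of lysosome-related organelles, came nearest to it. In limma with Benjamini-Hochberg adjustment 0 of the 44 genes had an adjusted p under 0.05, as did 0 of all 47722 probe sets (0%). Without adjustment 1 gene, RAB32, had a limma p under 0.05 and was higher in CD163high monocytes, against 1.23% of all probe sets in that direction. No gene was lower at that level, against 1.36% of all probe sets. The share of members with an unadjusted p under 0.05 was 2.27%, and the share of all genes, taken at 1 probe set each, was 3.27%, so that the members lay near the rest of the array. The median log2 difference of the 44 genes, as CD163high minus CD163low, was 0.015, with -0.015 over all probe sets and -0.013 over all genes. Single differences ran from -0.49 for RAB44 to 0.92 for RAB28. Of the genes 23 had a positive and 21 a negative difference.

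A difference that misses the threshold does not show that the populations are alike, and the intervals of these genes were wide. The median standard error was 0.30 on the log2 scale. For 28 of the 44 genes the 95% interval of the limma fit lay within a log2 difference of -1 to 1, that is within a doubling either way, and for 16 genes it reached further. For 43 genes the difference between the population means was smaller than the larger of the ranges among the 3 arrays of a population.

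**Figure D2:**
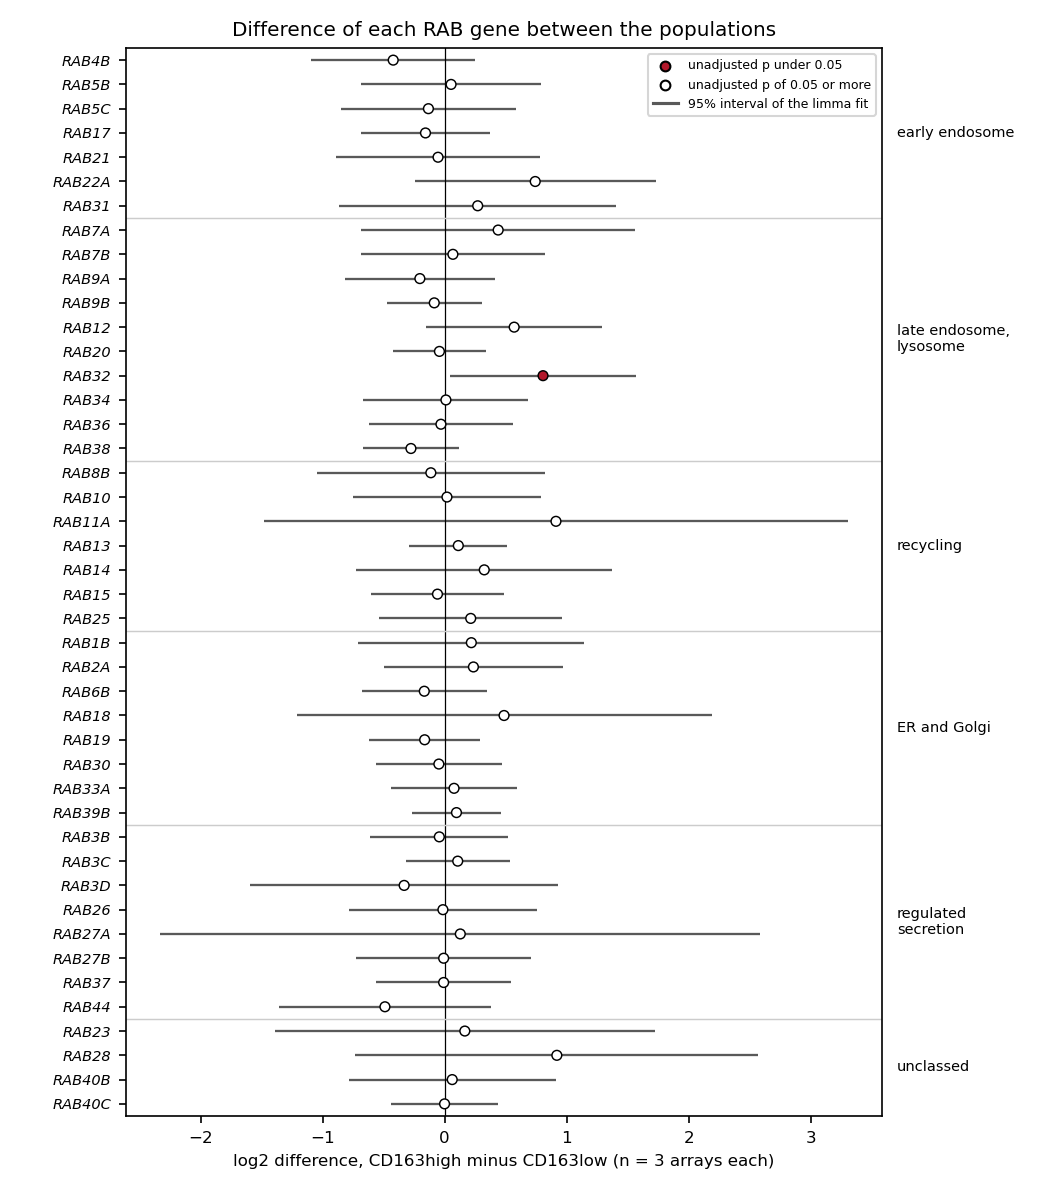
Log2 difference of each of the 44 RAB genes, CD163high minus CD163low, with the 95% interval of the limma fit as a horizontal line and the genes grouped by their main place of action. The filled point marks RAB32, the 1 gene with an unadjusted p under 0.05, and the widest intervals belong to RAB11A and RAB27A.

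Among the RABs of the early endosome, the first station after uptake, the 7 measured genes had a median log2 difference of -0.054, and none had an unadjusted p under 0.05. RAB5B, which like RAB5C drives fusion of early endosomes, had log2 signals of 6.59, 6.77 and 6.12 in CD163high monocytes of pigs 1, 2 and 3, against 5.90, 6.67 and 6.75 in CD163low monocytes. The populations overlapped, and the difference was 0.053 (95% interval -0.68 to 0.79). RAB5C had signals of 6.72, 6.47 and 7.04 in CD163high, against 6.64, 6.56 and 7.43 in CD163low monocytes. Both arrays of pig 3 were higher than the rest, and the difference between the populations was -0.13 (95% interval -0.85 to 0.58). RAB31, which carries cargo between the Golgi and endosomes, had signals of 8.01, 8.78 and 7.03 in CD163high monocytes, against 7.22, 7.78 and 8.00 in CD163low monocytes. It was higher in CD163high monocytes of pigs 1 and 2 and lower in those of pig 3, with within-pig differences of 0.79, 1.00 and -0.98.

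RAB22A, an early endosome RAB with a part in receptor recycling, had signals of 5.04, 5.68 and 5.87 in CD163high, against 4.15, 4.68 and 5.53 in CD163low monocytes. It was higher in the CD163high array of every pig, by 0.89, 1.00 and 0.34, although the populations overlapped, since the CD163low array of pig 3 lay above the CD163high array of pig 1. The mean log2 difference was 0.74 ± 0.41 (SE; limma unadjusted p = 0.116, adjusted p = 1). Once pig was a blocking term in limma it was the 1 RAB gene with an unadjusted p under 0.05, at 0.022 (adjusted p = 1), where 4.02% of all probe sets reached that level. Its 3 dimmer probe sets had differences of -0.19, -0.070 and -0.12, so the direction rests on the brightest probe set, whose signal did not exceed the 95th percentile of the controls on any array. Without the 2 arrays of highest background its difference was 0.25, and with array weights it was -0.039.

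RAB4B, which returns receptors quickly to the surface, had signals between 4.49 and 5.45 in CD163high and between 5.22 and 5.48 in CD163low monocytes. Its difference was -0.42 ± 0.28 (SE), with -0.69, -0.80 and 0.23 in pigs 1, 2 and 3. RAB21, a regulator of integrin traffic, ranged from 5.93 to 6.96 in CD163high and from 6.31 to 7.03 in CD163low monocytes. RAB17, known mainly from epithelia, lay between 3.03 and 3.61 on all arrays, near the mean of the controls.

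The late endosome and lysosome RABs held the 1 gene with a small p, RAB32. RAB32 acts in lysosome-related organelles and in the defence of macrophages against intracellular bacteria. Its signals were 6.71, 6.58 and 5.67 in CD163high monocytes of pigs 1, 2 and 3, against 5.61, 5.28 and 5.66 in CD163low monocytes. The CD163high arrays of pigs 1 and 2 stood above all others, and that of pig 3 lay with the CD163low arrays, so that the populations were apart by only the margin of pig 3. The means were 6.32 ± 0.57 in CD163high, against 5.51 ± 0.20 in CD163low monocytes (SD, n = 3), and the log2 difference was 0.81 ± 0.31 (SE), or 1.75-fold (limma unadjusted p = 0.0413, adjusted p = 1). The within-pig differences were 1.11, 1.30 and 0.011. Once pig was a blocking term in limma its unadjusted p was 0.0559 (adjusted p = 1). Left out in turn, pigs 1 and 2 gave differences of 0.66 and 0.56, and without pig 3 the difference was 1.20. RAB32 has a single probe set on the array.

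RAB38, the closest relative of RAB32 and known from melanosomes, had signals of 2.54, 2.75 and 2.62 in CD163high, against 3.04, 2.82 and 2.87 in CD163low monocytes. The populations did not overlap, but 5 of the 6 signals were below the mean of the background controls, so no fold is given and the difference of -0.28 (95% interval -0.67 to 0.12) is of uncertain size. RAB32 and RAB38 were the only members whose populations did not overlap, 1 in each direction. Over the array 2.92% of probe sets were apart with CD163high above and 3.37% with CD163high below.

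RAB7A, which controls the fusion of late endosomes and phagosomes with lysosomes, had signals of 9.68, 10.18 and 8.93 in CD163high monocytes, against 8.37, 9.77 and 9.33 in CD163low monocytes. All 6 lay above every background control. CD163high was above CD163low in pigs 1 and 2 and below it in pig 3, and the mean difference was 0.44 (95% interval -0.68 to 1.56). A second, dimmer RAB7A probe set had signals of 7.10, 7.61 and 5.75 in CD163high, against 5.82, 6.65 and 5.76 in CD163low monocytes, and a difference of 0.74 ± 0.52 (SE). Within the pigs it differed by 1.29, 0.96 and -0.017, so that pig 3 showed almost no difference there. RAB7B, which carries cargo from endosomes to the Golgi, lay near the mean of the controls, at 3.07, 3.15 and 4.00 in CD163high, against 3.62, 3.03 and 3.38 in CD163low monocytes.

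RAB9A, which returns receptors of lysosomal enzymes from late endosomes to the Golgi, showed how much the choice of probe set can matter. Its brightest probe set had signals of 6.19, 5.82 and 6.13 in CD163high, against 6.38, 5.80 and 6.57 in CD163low monocytes, a narrow range with a difference of -0.20 (95% interval -0.82 to 0.41). The second probe set had 7.05, 7.79 and 3.20 in CD163high, against 3.61, 7.45 and 5.01 in CD163low monocytes. It was lowest on the CD163high array of pig 3 and the CD163low array of pig 1, which are the 2 arrays of highest background, and its difference was 0.65 ± 1.46 (SE). The third probe set had the same 2 lowest arrays, at 2.27 and 3.27.

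RAB12, which takes the transferrin receptor to lysosomes, was above every background control on all arrays, at 7.80 to 8.78 in CD163high, against 7.65 to 7.98 in CD163low monocytes. Its difference was 0.57 (95% interval -0.15 to 1.29), with 1.13, -0.094 and 0.68 in pigs 1, 2 and 3. Its second probe set had the opposite difference, -0.57 ± 0.97 (SE). RAB20, a RAB of maturing phagosomes in macrophages, had the most even values of the RABs above the mean control, with 4.30, 4.47 and 4.41 in CD163high, against 4.44, 4.32 and 4.53 in CD163low monocytes (difference -0.043, 95% interval -0.42 to 0.34). RAB34 and RAB36, both linked to the position and maturation of lysosomes, had differences of 0.011 and -0.030, and RAB9B, the second RAB9 gene, had -0.085 at signals under the mean control on every array. The median over the 10 genes of the late endosome and lysosome was -0.010.

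The recycling RABs had a median difference of 0.11 over 7 genes, and the widest gap between pigs. RAB11A, the principal RAB of the recycling endosome, had signals of 8.71, 7.79 and 5.22 in CD163high monocytes of pigs 1, 2 and 3, against 5.09, 7.20 and 6.69 in CD163low monocytes. The within-pig differences were 3.62, 0.59 and -1.47, and the mean difference of 0.91 had a 95% interval from -1.48 to 3.30. Again the lowest arrays were those with the highest background. On the other 4 arrays the difference was 1.30 (limma unadjusted p = 0.0288, adjusted p = 1), where 3.73% of all probe sets had a p under 0.05. That comparison keeps CD163high of pigs 1 and 2 and CD163low of pigs 2 and 3. The other probe sets of RAB11A lay at or below 3.41, near the mean of the controls.

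RAB14, which links the Golgi with endosomes, was also lowest in CD163high monocytes of pig 3 and, within the CD163low arrays, in pig 1. Its signals were 7.87, 7.36 and 6.35 in CD163high, against 6.40, 6.97 and 7.23 in CD163low monocytes, and the difference was 0.32 (95% interval -0.72 to 1.37). RAB10, which in mouse macrophages brings Toll-like receptor 4 to the surface, had signals of 10.24, 9.61 and 9.19 in CD163high, against 9.38, 9.60 and 10.00 in CD163low monocytes. CD163high was higher by 0.86 in pig 1 and lower in pig 3, with a difference of -0.81 there, and the mean difference was 0.019. RAB8B, of exocytic traffic, ranged from 8.73 to 9.94 in CD163high and from 9.06 to 9.89 in CD163low monocytes, with a difference of -0.11 (95% interval -1.05 to 0.82). RAB13, RAB15 and RAB25, known from epithelia and neurons, had differences of 0.11, -0.058 and 0.21.

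**Figure D3:**
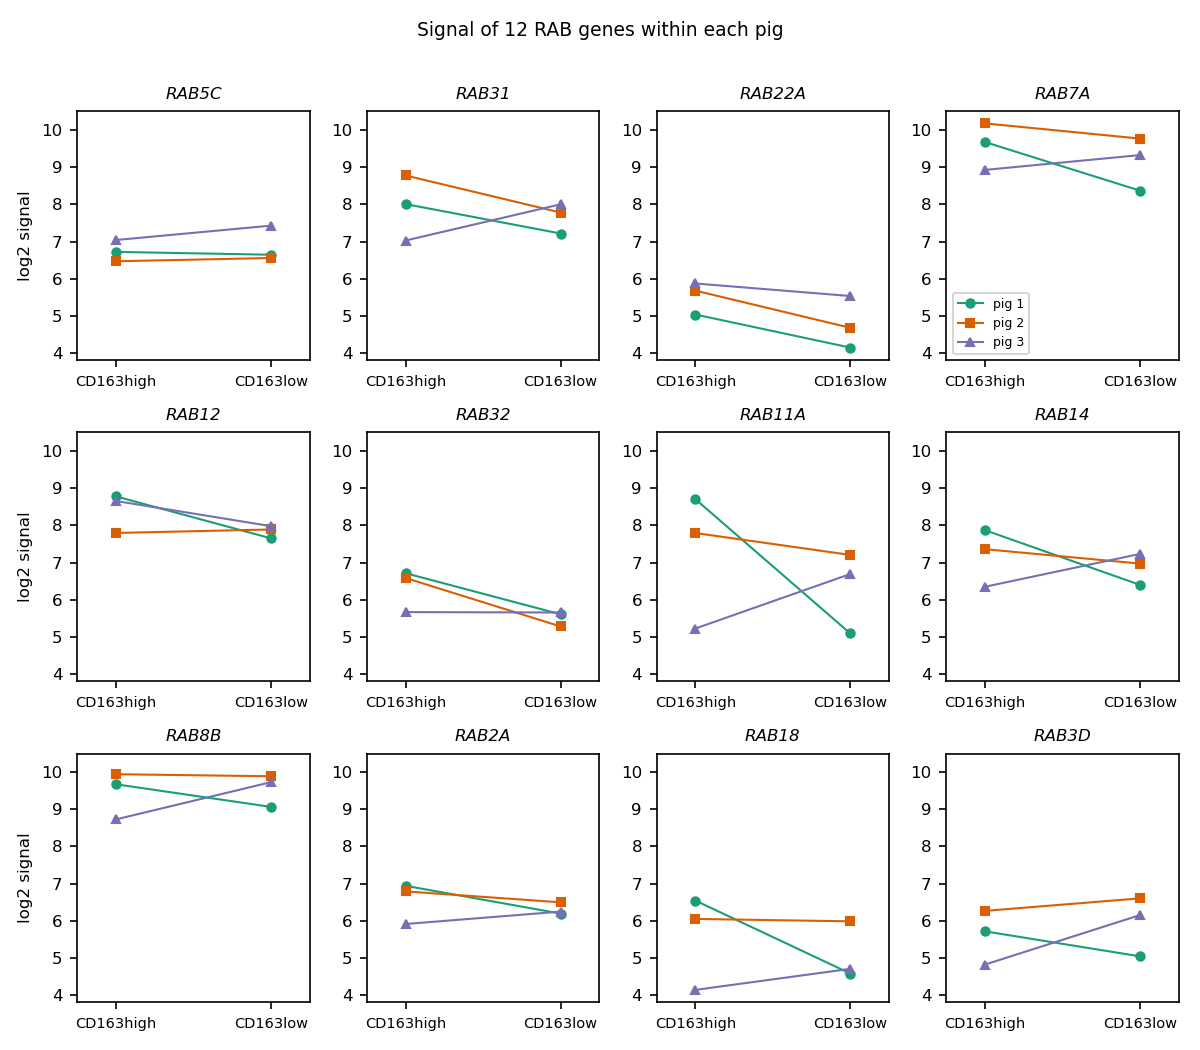
Log2 signal (vertical axis) of 12 RAB genes in CD163high and CD163low monocytes, with the 2 arrays of each pig joined by a line. For RAB22A the CD163high end is the higher one in all 3 pigs and for RAB32 clearly so in pigs 1 and 2, while for RAB11A, RAB14 and RAB7A it is the higher end in pig 1 and the lower end in pig 3.

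Pigs 1 and 3 often had opposite signs, in both directions, among the RAB genes as over the whole array. CD163high was above CD163low in pig 1 and below it in pig 3 for 15 of the 44 genes, or 34.1%, against 21.6% of all probe sets. The reverse held for 10 genes, or 22.7%, among them RAB4B, RAB7B, RAB26 and RAB34, against 37.2% of all probe sets. The median difference of all 44 genes was 0.062, 0.060 and -0.056 in pigs 1, 2 and 3, and over all probe sets it was -0.12, 0.0049 and 0.050. By class, and with no test of a difference between classes, the early endosome genes had medians of 0.65, 0.10 and -0.39 and the recycling genes of 0.61, 0.050 and -0.81. The late endosome and lysosome genes had -0.17, 0.13 and -0.0055, the endoplasmic reticulum and Golgi genes 0.017, 0.054 and -0.038, and the secretion genes -0.14, -0.15 and -0.018. Taken over all classes, the 17 genes above the 95th percentile of the controls on at least 1 array had medians of 0.75, 0.064 and -0.57. Of the 44 RAB genes 16 had their lowest CD163high signal in pig 3 and 18 had their lowest CD163low signal in pig 1. For 12 genes, or 27.3%, both held, against 15.5% of all probe sets. Only 5 RAB genes were higher in CD163high in all 3 pigs and 5 were lower in all 3, that is 11.4% each, while 9.99% of all probe sets were higher and 12.4% were lower. The part of the background in the opposite signs of pigs 1 and 3 was not tested. With each array's mean background control signal as a covariate, 6 RAB genes had an unadjusted p under 0.05, namely RAB11A, RAB18, RAB28, RAB32, RAB4B and RAB44, against 9.89% of all probe sets, and 0 had an adjusted p under 0.05 (limma). RAB28 had the smallest unadjusted p of these in limma, at 0.000563 (adjusted p = 0.178), with a difference of 1.34 in place of 0.92. Its within-pig differences were 2.41, 0.12 and 0.23 in pigs 1, 2 and 3, so the difference came mainly from pig 1. The CD163low signal of RAB28 in pig 1 was 2.09, under the mean control of that array at 3.29. RAB28 exceeded the 95th percentile of the controls on no array, and its difference is of uncertain size.

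Among the RABs of the endoplasmic reticulum and Golgi the 8 genes had a median difference of 0.087. RAB2A, which works between the endoplasmic reticulum and the Golgi, had signals of 6.94, 6.79 and 5.91 in CD163high, against 6.19, 6.49 and 6.24 in CD163low monocytes (difference 0.24, 95% interval -0.50 to 0.97). RAB1B, of the same step, ranged from 4.19 to 5.10 in CD163high and from 3.75 to 4.92 in CD163low monocytes. RAB18, of the endoplasmic reticulum and lipid droplets, ranged from 4.14 to 6.54 in CD163high and from 4.58 to 5.98 in CD163low monocytes, with within-pig differences of 1.96, 0.064 and -0.57. RAB19 and RAB30 had differences of -0.16 and -0.047. RAB6B, RAB33A and RAB39B, known mainly from neurons or lymphocytes, had differences of -0.17, 0.077 and 0.097 at signals between 2.01 and 3.21, around or under the mean of the controls.

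The RABs of regulated secretion, which dock secretory granules and exosome-bearing bodies at the surface, had a median difference of -0.011 over 8 genes. RAB3D, found on secretory granules, had signals of 5.71, 6.26 and 4.82 in CD163high, against 5.04, 6.60 and 6.15 in CD163low monocytes, a difference of -0.33 (95% interval -1.59 to 0.93). Its second probe set had -0.51 ± 0.32 (SE). RAB37, a RAB of secretory granules, had 2.83, 3.52 and 3.00 in CD163high, against 2.99, 3.18 and 3.21 in CD163low monocytes, close to the mean of the controls. RAB26, of secretory granules, ranged from 4.10 to 5.14 in CD163high and from 4.28 to 4.85 in CD163low monocytes. RAB3B and RAB3C, known from synaptic vesicles, had differences of -0.043 and 0.11, and RAB44, an unusually large RAB, had -0.49. RAB3C was under the mean control on every array, and RAB44 was above the mean of the controls on 3 of 6 arrays.

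RAB27A, which docks the lytic granules of cytotoxic lymphocytes and releases exosomes, stood apart by pig. Its signals were 4.96, 6.76 and 4.12 in CD163high monocytes of pigs 1, 2 and 3, against 4.23, 7.12 and 4.10 in CD163low monocytes. Both arrays of pig 2 stood above the other 4, and the population difference was 0.13 (95% interval -2.33 to 2.59). The second RAB27A probe set had 2.56, 3.75 and 2.70 in CD163high, against 3.01, 4.96 and 3.29 in CD163low monocytes, again with pig 2 highest. RAB27B, its nearest relative, had 2.63, 3.13 and 2.94 in CD163high, against 2.53, 3.47 and 2.72 in CD163low monocytes, also highest in pig 2 but close to the floor.

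Transcripts of T cells were also highest in pig 2. CD3E, which encodes a chain of the T cell receptor complex, had log2 signals of 3.78, 7.08 and 4.21 in CD163high, against 4.67, 7.06 and 5.40 in CD163low monocytes of pigs 1, 2 and 3. Of 6 listed T cell markers 5 were measured, and their summed linear signal was 730.0, 2066 and 443.9 in CD163high, against 418.0, 2433 and 1077 in CD163low monocytes. In pig 1 CD2 was higher in CD163high, by a log2 difference of 1.19. CD3D, CD3E, CD3G and LCK were lower there, with differences of -1.38, -0.89, -0.11 and -0.74. The sum of 6 NK cell markers was 350.6, 975.2 and 310.9 in CD163high, against 518.3, 1162 and 822.1 in CD163low monocytes, and that of 4 B cell markers was 118.3, 587.6 and 138.4 in CD163high, against 212.5, 1057 and 386.7 in CD163low monocytes. The summed signal of the 5 measured red cell markers (of 6) ran from 47.2 to 2139 in CD163high and from 59.3 to 1806 in CD163low monocytes and was highest in pig 2, as were HBB, ALAS2 and AHSP, while SLC4A1 and HBM were not highest in pig 2 in either population. RMA values are never 0, and CD3D and CD3G were each above the mean of the controls on 5 arrays and CD3E on all 6. The part of other cell types in the RAB27A signal of pig 2 was not tested.

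**Figure D4:**
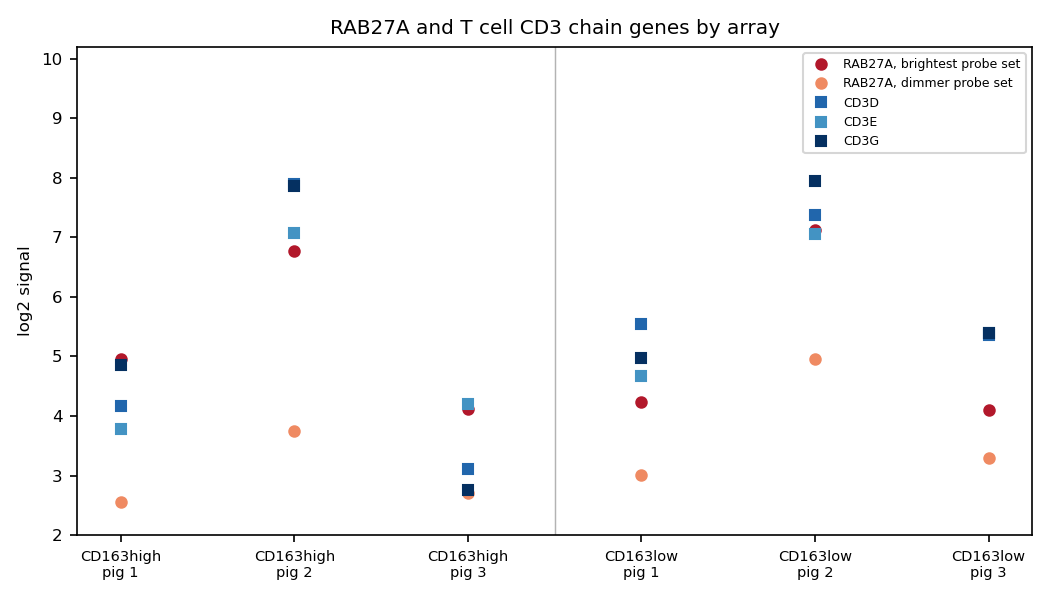
Log2 signal (vertical axis) of the 2 RAB27A probe sets (circles) and of the T cell genes CD3D, CD3E and CD3G (squares) on each array, CD163high on the left and CD163low on the right. All 5 are highest on the array of pig 2 within each population.

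Altogether 6 RAB genes had both arrays of pig 2 above the other 4 arrays, which were RAB3D, RAB7A, RAB8B, RAB23, RAB27A and RAB27B. This was 13.6% of the members, against 10.4% of all probe sets. For pig 1 the count was 1 gene, RAB40C, against 6.05% of all probe sets, and for pig 3 it was 5 genes, RAB1B, RAB5C, RAB13, RAB40B and RAB44, against 9.41%. RAB23, a regulator of Hedgehog signalling, had a difference of 0.17 between the populations and RAB28, a RAB of cilia, had 0.92 (95% interval -0.73 to 2.57), and each was above the mean of the controls on 3 arrays. RAB40B and RAB40C, which carry a SOCS box and act in ubiquitin ligases, had differences of 0.062 and -0.00030.

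Dimmer probe sets were a second reading of 19 of the genes, and 25 genes had only 1. None of the 39 further probe sets had an unadjusted p under 0.05 in limma, with 0 at an adjusted p under 0.05. Of these 39, 16 had a sign opposite to the brightest probe set, in 10 genes: RAB3B, RAB9A, RAB10, RAB12, RAB14, RAB15, RAB22A, RAB23, RAB27A and RAB30.

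The proteins that load, activate, inactivate and follow the RABs gave 130 measured genes of 155 listed, with a median difference of -0.042. In limma 0 had an adjusted p under 0.05. Without adjustment 2 were higher, 2 were lower and 126 had a p of 0.05 or more. The 4 genes with a smaller p were 3.08% of the 130, against 3.27% of all genes. In all 4 the populations did not overlap. Of the 130 genes, 3 were apart with CD163high above and 4 with CD163high below, where 2.92% and 3.37% of all probe sets were so. In the blocked limma fit 8 of the 130, or 6.15%, had an unadjusted p under 0.05, against 4.02% of all probe sets, and 0 an adjusted one. RABEP1, or rabaptin-5, an effector of RAB5 that stabilises its active form, had signals of 7.03, 6.85 and 6.93 in CD163high monocytes of pigs 1, 2 and 3, against 6.54, 6.32 and 6.32 in CD163low monocytes. Every CD163high array was above every CD163low array, and the log2 difference was 0.55 ± 0.16 (SE; limma unadjusted p = 0.0143, adjusted p = 1). TBC1D1, a GTPase-activating protein for RAB10 and its relatives, had 6.71, 7.20 and 7.003 in CD163high, against 5.37, 6.30 and 6.12 in CD163low monocytes, a difference of 1.04 ± 0.29 (limma unadjusted p = 0.0111, adjusted p = 1).

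The 2 genes with a lower signal were exchange factors. DENND4B, an exchange factor for RAB10, had signals of 4.10, 4.48 and 4.33 in CD163high, against 4.86, 4.94 and 5.23 in CD163low monocytes. The difference was -0.71 ± 0.19 (limma unadjusted p = 0.00958, adjusted p = 1). RINL, an exchange factor of the RIN family for early endosome RABs, had 3.71, 3.87 and 4.17 in CD163high, against 4.515, 4.38 and 4.27 in CD163low monocytes, a difference of -0.47 ± 0.19 (limma unadjusted p = 0.0460, adjusted p = 1). In the blocked limma fit RINL had an unadjusted p of 0.0876 (adjusted p = 1). DENND4B and RINL were above the mean of the controls on all 6 arrays but above the 95th percentile of the controls on none. The next exchange factor was DENND1B, which activates RAB35, at -0.99 ± 0.41, with an unadjusted limma p of 0.0518 without and 0.0423 with the block (adjusted p = 1). The 24 measured of 35 exchange factors had a median of -0.23, with 0 higher, 2 lower and 22 at an unadjusted limma p of 0.05 or more. Over all genes the median was -0.013, and 1.23% of all probe sets were higher and 1.36% lower at an unadjusted limma p under 0.05. Whether the exchange factors differ from the rest of the array was not tested.

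The other lists held the 2 genes with a higher signal. The 33 GTPase-activating proteins (of 37 listed) had a median of -0.050, with TBC1D1 as the 1 gene at an unadjusted p under 0.05 and with RABGAP1, which acts on RAB6, at 0.64 ± 0.33 and TBC1D8B at -0.76 ± 0.39. The 13 early endosome effectors (of 15) had a median of 0.22, with RABEP1 as the 1 gene at that level, the RAB5 effector APPL1 at 0.49 ± 0.32 and the RAB4 effector GRIPAP1 at 0.38 ± 0.26. Late endosome and lysosome effectors (15 of 17) had a median of -0.012, and OSBPL1A, a sterol sensor bound by RAB7, had 0.89 ± 0.44 (unadjusted limma p 0.0857 without and 0.0417 with the block), UVRAG -0.35 ± 0.20 and the RAB9 effector RABEPK -0.32 ± 0.20.

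The 24 recycling and secretory effectors (of 27) had a median of -0.11. The RAB11 effector RAB11FIP1 had -0.54 ± 0.22 (unadjusted limma p 0.0525 without and 0.0389 with the block), the phosphoinositide phosphatase OCRL had 0.41 ± 0.25 and the motor gene MYO5A had 0.39 ± 0.26. The RAB27 effectors SYTL3 and SYTL2, named after their values were seen, had differences of -0.68 ± 0.51 and -0.86 ± 0.87 and were lower in the CD163high array of every pig. Their unadjusted limma p was 0.226 and 0.359 without the block and 0.0258 and 0.0360 with it. Like RAB27A, both had their highest signals in pig 2, at 5.62 and 6.58 in CD163high, against 5.93 and 7.46 in CD163low monocytes. Other genes of this list did not. MLPH was lowest in pig 2 in both populations, at 4.72 in CD163high and 4.66 in CD163low monocytes, as was SYTL4, which was under the mean control on every array. SYTL1, SYTL5, MYRIP and UNC13D were not highest in pig 2 in either population. Effectors of the endoplasmic reticulum and Golgi (12 of 14) had a median of 0.17, with RABGAP1, which is on this list as well, the dynein adaptor BICD1 at 0.26 ± 0.19 and the Golgi stacking protein gene GORASP2 at 0.21 ± 0.25. The 10 genes (of 11) of prenylation and membrane cycling, which attach RABs to their lipid anchor and ferry them through the cytosol, had a median of 0.17. RABGGTB, the beta subunit of the geranylgeranyl transferase, had 7.49, 7.09 and 4.39 in CD163high, against 4.03, 6.94 and 4.47 in CD163low monocytes, a difference of 1.18 ± 1.07. Its lowest CD163high array was that of pig 3 and its lowest CD163low array that of pig 1, the same 2 arrays as for RAB11A. The alpha subunit gene RABGGTA had -0.15 ± 0.24 and CHM, the escort protein gene, 0.59 ± 0.59.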

How the data were processed

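The deposited table holds RMA intensity values. The submitters' processing notes name RMA and limma with no version or role, and the sources used here give no probe-set definition, filter or genome build. RMA has no absolute unit and makes differences of dim probe sets smaller. The number of arrays limits the precision. The deposited values mix scales. Log2 values fill the first 186 rows. For the remaining 47659 rows log2 gave whole multiples of 0.0001 (tolerance 1e-06), so log2 was taken of these only. Leaving out 123 array controls kept 47722 probe sets, of which 26426 had 1 symbol, 0 several and 21296 none. Each gene was represented by its brightest probe set, judged by the mean of the 6 arrays.

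CD163high minus CD163low was tested with lmFit and eBayes (limma 3.58.1 in R 4.3.3), two-sided and without a block, and p-values were adjusted by Benjamini-Hochberg across the array, with 0.05 as the threshold. The function was tested on simulated data, with 50 probe sets changed by each of 4 log2 sizes. For sizes of 1, 2, 3 and 4, limma gave an adjusted p under 0.05 for 4%, 38%, 70% and 86% of them. Most differences of 1 or 2 were therefore missed at that threshold in the simulation. It drew independent noise for each array, with no pigs and no shared background, so its rates need not hold for the real arrays. Of its unchanged probe sets 5.38% had an unadjusted limma p under 0.05. In the real data 1.23% of all probe sets were higher and 1.36% lower at that level. The labels' descriptions place same-numbered arrays in the same pig. Deviations of its 2 arrays from the population means correlated at -0.20, 0.67 and 0.26 in pigs 1, 2 and 3. Without a block, p-values ignore that each pig gave 2 arrays.

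The members and lists were chosen with earlier results of these data known. Every member is named. Values on every array are given for a fixed set of members (RAB5B, RAB5C, RAB22A, RAB31, RAB7A, RAB7B, RAB9A, RAB32, RAB38, RAB20, RAB11A, RAB14, RAB10, RAB2A, RAB3D, RAB27A, RAB27B and RAB37 were measured), for any with an unadjusted p under 0.05 and for any whose populations did not overlap. Of each pathway list, the 3 genes with the smallest p are named. Alternatives were a fixed block for the pig, a random one, a trended robust variance, weights for the arrays, 2 filters on dim probe sets, quantile normalization, median centring, the background signal as a covariate, omission of the 2 arrays of highest background, a mean over each gene's probe sets, and omission of single pigs or arrays. The share over 1 probe set a gene was added after the data were seen.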

Additional observations from a re-analysis of the deposited data

How the results depend on the processing

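In limma 0 probe sets had an adjusted p under 0.05 in the main analysis and in all alternatives run, and the same held for the RAB genes, whose smallest adjusted p under any alternative was 0.177. Unadjusted, the number of RAB genes with a p under 0.05 was 1 with the replicate block of the pig as with no block, but it was RAB22A in place of RAB32 (unadjusted p 0.022 and 0.0559 with the block). The block changed no other call of a member. It was also 1 with the random block, quantile normalization, median centring and the mean of all probe sets, each time RAB32. It was 0 with trended robust variance, without the probe sets of lowest mean and without probe sets under the mean control, where 40 and 33 members stayed, 7 with array weights, 6 with the background signal as a covariate and 3 without the 2 arrays of highest background. These are 15.9%, 13.6% and 6.82% of the members, against 18.6%, 9.89% and 3.73% of all probe sets under the same settings. Leaving out a pig or an array gave 0 to 4. It was 4 without the CD163high array of pig 3, 3 without pig 3, and 0 without pig 1, either of its arrays or the CD163low array of pig 2. The 4 and 3 genes are 9.09% and 6.82% of the members, against 5.03% and 2.58% of all probe sets. Under the settings with 0 members, between 1.62% and 4.61% of all probe sets had an unadjusted p under 0.05. The cause was not tested. The median difference of the RAB genes was -0.065 with array weights, against 0.015, and lay between -0.0074 and 0.079 after omission of any pig or array. RAB32 was higher in CD163high in all 20 alternatives, with differences from 0.56 to 1.20, and had an unadjusted limma p under 0.05 in 9. The shared sign is no separate support. Both blocks, the trended robust variance, the 2 filters and the mean of probe sets left its difference at 0.81 by construction. Since its populations did not overlap, its sign could not change on omission of a pig or an array. The sign of 7 to 15 members changed after such an omission and of 0 to 11 under the other alternatives. None of these members was called, and at most 1 per alternative had a difference larger than its standard error. Signals near the background controls limit what can be read of the dim members.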
